A study of Rattus norvegicus with 6 samples.

Results

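The mitochondrial solute carriers of the SLC25 family were followed in rat myocardium after ischemia and reperfusion. The carriers were taken by symbol, as every gene named Slc25a followed by a number, which gave 43 genes of the 30452 rows of the expression table. The symbol rule itself used no measured value, but the family was chosen with earlier results of these data known. RNA-seq had been performed on myocardial tissue of 3 sham rats and 3 rats with ischemia/reperfusion (I/R), all wild-type males. I/R was made by tying off the left anterior descending coronary artery for 30 min, and the heart was taken 6 h after the tie was released. The labels give these times for sham samples too and name no region of the heart, so the share of ischemic and remote muscle in each I/R sample is unknown. The samples are separate rats.

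SLC25 carriers are small proteins that span the inner mitochondrial membrane and exchange or import specific metabolites, since that membrane is otherwise closed to most charged molecules. They pass ATP out and ADP in, move malate, aspartate, glutamate and acylcarnitines to and from the matrix, and supply phosphate, cofactors, iron and glutathione. In the heart, which draws most of its ATP from oxidative phosphorylation, the ADP/ATP carriers are among the most abundant mitochondrial proteins. The carriers themselves are encoded in the nucleus and are placed in the inner membrane by the TIM22 import machinery.

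The values were FPKM, that is, fragments per kilobase of gene and relative to the fragments of the library, so that levels can be compared between genes. Low values across the table moved in whole-number steps, which gave relative depths against sham 1 of 1.18 and 1.14 in sham 2 and 3 and of 0.873, 0.935 and 0.881 in I/R 1 to 3, and whole numbers of fragments fitted all 39 carriers with a value above 0. The 13 mRNAs encoded in mitochondrial DNA took 80.1 to 86.2% of all FPKM in the sham rats and 61.8 to 71.5% in the I/R rats, so the remaining genes shared a larger part of the total in the I/R rats. All 8 cardiomyocyte markers were detected, and their summed FPKM was 11537, 4048 and 3546 in sham 1 to 3 and 34103, 24495 and 23557 in I/R 1 to 3. Sham 1 therefore lay closer to the I/R rats than the other sham rats did, and 7 of the 8 markers passed the test as higher. In bulk tissue, fewer cells of a type and less RNA per cell cannot be told apart. Summed neutrophil and monocyte markers ranged from 51.2 to 67.3 in the sham rats and from 74.5 to 142 in the I/R rats, with 3 of 6 tested markers higher and Ccr2, named after its values were seen, lower. Summed fibroblast markers ranged from 267 to 345 and from 381 to 406, with 2 of 7 higher, and summed endothelial markers from 173 to 227 and from 170 to 213. None of the listed markers of these 4 cell types found in the table was at 0 in every rat, and the part of cell makeup in the results below was not tested.

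Of the 43 carriers, 31 had a mean of at least 0.5 FPKM and were tested, and 12 lay below that filter. Among the 31, 15 carriers rose in the I/R rats, 1 fell and 15 did not pass the threshold of 0.05 on the adjusted p of limma. Over all 10942 genes tested, 25.5% rose and 7.36% fell. The median log2 fold change of the carriers was 0.41, beside 0.29 over all genes tested, and 21 of the 31 had a value above 0. Every I/R value lay above every sham value for 17 carriers and below for 2, while the same held for 37.2% and 13% of all genes tested. All fold changes are on the log2(FPKM + 0.1) scale, which understates the change of genes of low level.

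The counts depended on how the libraries were scaled. When the values were rescaled after removing the 13 mitochondrially encoded mRNAs from the total, 5 carriers rose and 8 fell. The 5 were among the 15 and comprised Slc25a4, Slc25a5, Slc25a11, Slc25a23 and Slc25a25. The 8 were Slc25a36 and 7 carriers not called for the deposited FPKM, namely Slc25a22, Slc25a24, Slc25a28, Slc25a32, Slc25a38, Slc25a42 and Slc25a45, with log2 fold changes of -0.87 to -1.28 and adjusted p of 0.013 to 0.040. With this scaling 793 of all 10942 genes tested rose and 2857 fell. It moved the median of all genes from 0.29 to -0.46, and the share of higher among all calls from 77.6 to 21.7%. With centring on the median of all genes 13 carriers rose and 3 fell (Slc25a24 and Slc25a32 beside Slc25a36), and the share of higher calls was 56.5%. With quantile normalization 9 carriers rose and 2 fell (Slc25a28 beside Slc25a36), beside 1441 and 1559 of all genes tested, with a share of 48.0%. Rescaling to TPM left 15 higher and 1 lower, with a share of 87.3%. Without a filter on low values, which brought 28293 genes into the fit, the one carrier called was Slc25a33, as higher. Of all genes, 152 were then higher and 47 lower.

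**Figure D1:**
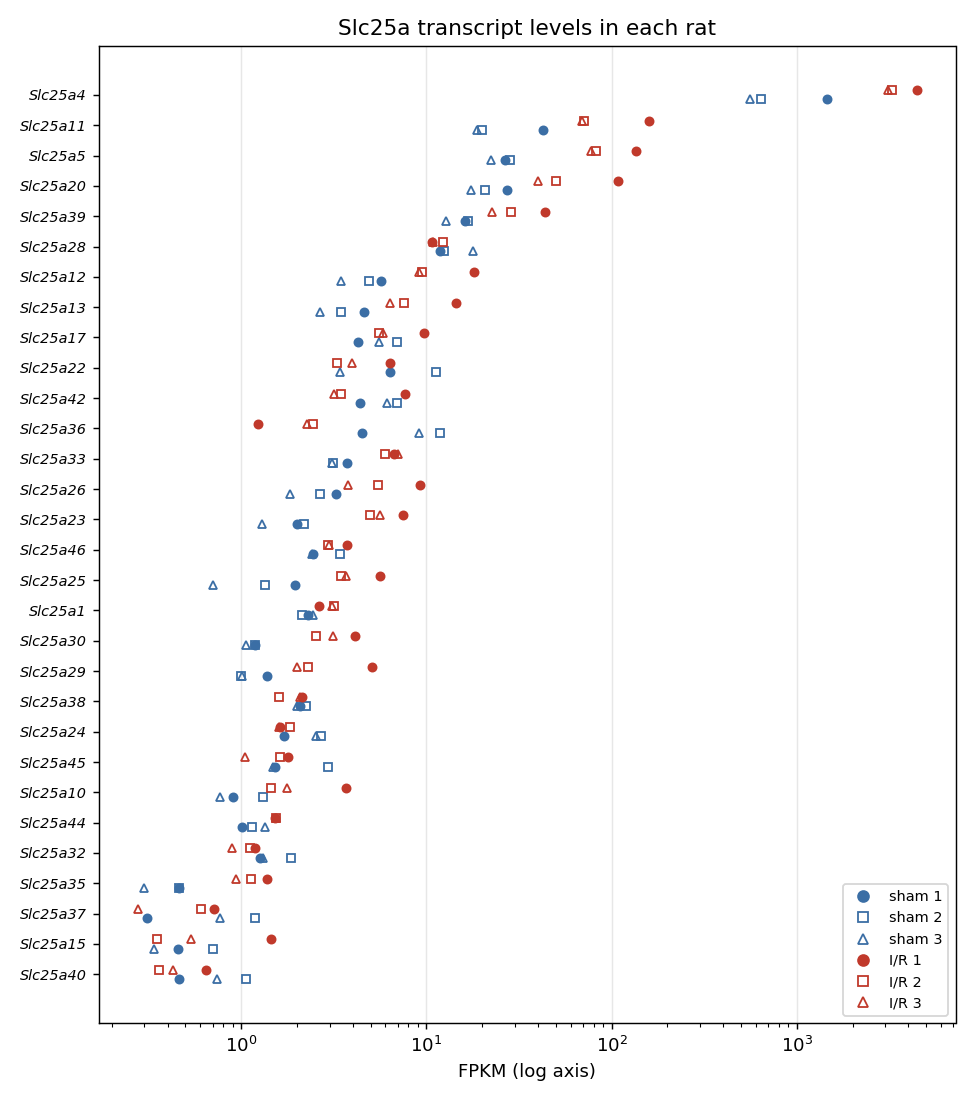
FPKM of 30 of the 31 tested carriers in each rat on a log axis, ordered by mean level, with sham rats in blue, I/R rats in red and one marker shape per replicate number. Slc25a4 stands far above the other carriers in every rat, and I/R 1 holds the highest red value for most carriers that rose.

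**Figure D2:**
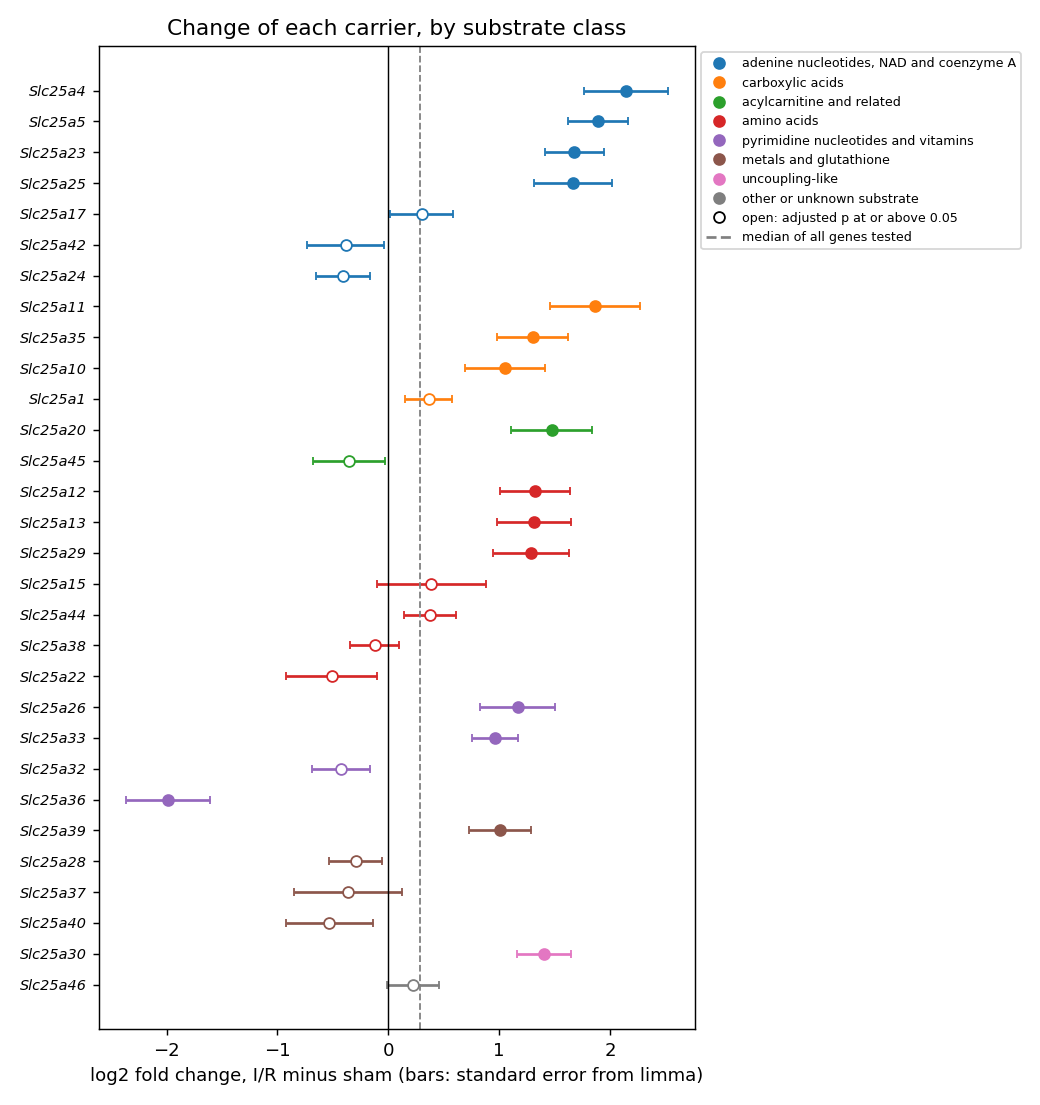
Log2 fold change of I/R against sham for 30 of the 31 tested carriers, grouped by substrate class, with the standard error from limma as bars, the median of all genes tested (0.29) as a dashed line, and open points for carriers past neither side of the threshold. Slc25a36 is the one filled point on the left, and 15 filled points lie on the right.

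Among the carriers of adenine nucleotides, NAD and coenzyme A, 4 of 7 tested rose and 3 did not pass the threshold. The counts of this and the following classes cover few genes and stand beside 25.5% higher and 7.36% lower over all genes tested. Slc25a4 (ENSRNOG00000010830), which encodes the ADP/ATP carrier of heart and skeletal muscle, held 1462, 638 and 558 FPKM in sham 1 to 3. In I/R 1 to 3 it held 4436, 3264 and 3109 FPKM. The groups did not overlap, and the means were 886 ± 500 and 3603 ± 725 FPKM (SD, n = 3), with a log2 fold change of 2.14 ± 0.38 (SE) and an adjusted p of 0.0045 in limma. By mean FPKM it ranked 7th among genes outside the mitochondrial DNA, and it made up 77.8 to 88.7% of the summed carrier FPKM in the sham rats and 88.3 to 91.2% in the I/R rats. The other carriers summed to 187, 182 and 150 FPKM in sham 1 to 3 and to 586, 324 and 298 FPKM in I/R 1 to 3. As a share of FPKM outside the 13 mitochondrially encoded mRNAs they held 0.104, 0.137 and 0.117% and 0.210, 0.135 and 0.127%, which overlapped. With quantile normalization the call of Slc25a4 was lost, as for Slc25a11.

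Slc25a5 (ENSRNOG00000039980), the ADP/ATP carrier of most other tissues, was at 26.4, 28.2 and 22.4 FPKM in the sham rats and at 135, 82.3 and 77.2 FPKM in the I/R rats. Its log2 fold change was 1.89 ± 0.27 (adjusted p = 0.0029), without overlap. RefSeq lists pseudogenes of Slc25a5 and Slc25a39, so reads of these genes could have been shared with near-identical copies and their levels are uncertain. The share of Slc25a4 in the sum of both was 98.2, 95.8 and 96.1% in the sham rats and 97.0, 97.5 and 97.6% in the I/R rats, a difference of 0.67 points that did not pass (two-sided exact permutation test, p = 0.40, adjusted p = 0.70 over 7 pairs). With 3 rats against 3 this test cannot give a p under 0.10, so it could not have passed 0.05 for any pair.

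The upstream sequences of this class are given because its members split between rising and not passing. Each line holds the 250 bases before the RefSeq gene start in GRCr8, in the gene's own direction, with matches to the searched motifs in capitals. The pair of ADP/ATP carriers is followed by the 3 calcium-dependent ATP-Mg/phosphate carriers.
Slc25a4: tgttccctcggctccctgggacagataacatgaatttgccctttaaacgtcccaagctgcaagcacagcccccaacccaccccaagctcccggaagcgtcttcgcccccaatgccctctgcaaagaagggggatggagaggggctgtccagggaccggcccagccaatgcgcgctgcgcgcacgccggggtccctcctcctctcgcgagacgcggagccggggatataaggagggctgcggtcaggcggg
Slc25a5: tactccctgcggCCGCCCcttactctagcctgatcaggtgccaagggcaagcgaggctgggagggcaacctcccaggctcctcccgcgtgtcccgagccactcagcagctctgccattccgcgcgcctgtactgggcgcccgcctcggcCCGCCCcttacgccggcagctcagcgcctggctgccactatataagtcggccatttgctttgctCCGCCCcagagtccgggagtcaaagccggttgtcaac
Slc25a23: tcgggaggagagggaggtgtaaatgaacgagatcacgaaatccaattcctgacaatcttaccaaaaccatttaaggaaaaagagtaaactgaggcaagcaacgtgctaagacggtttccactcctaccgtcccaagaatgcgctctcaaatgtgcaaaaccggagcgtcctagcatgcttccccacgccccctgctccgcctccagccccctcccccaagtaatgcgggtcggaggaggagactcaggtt
Slc25a24: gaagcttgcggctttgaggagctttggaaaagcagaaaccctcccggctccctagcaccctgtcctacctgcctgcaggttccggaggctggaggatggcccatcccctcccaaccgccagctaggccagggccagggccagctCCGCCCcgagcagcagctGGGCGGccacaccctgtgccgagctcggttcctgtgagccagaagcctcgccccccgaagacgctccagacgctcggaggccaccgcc
Slc25a25: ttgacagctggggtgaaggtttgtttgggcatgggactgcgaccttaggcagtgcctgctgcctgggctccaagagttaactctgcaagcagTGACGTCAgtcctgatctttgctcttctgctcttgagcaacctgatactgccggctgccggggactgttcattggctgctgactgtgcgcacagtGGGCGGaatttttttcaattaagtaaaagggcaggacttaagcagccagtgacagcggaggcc
The Slc25a4 window (chr16:52805271-52805520, plus strand) held none of the motifs, the Slc25a5 window (chrX:120897366-120897615, plus) held 3 GC boxes, and the Slc25a23 window (chr9:1985366-1985615, minus) held none. The Slc25a24 window (chr2:199449175-199449424, plus) held 2 GC boxes, and the Slc25a25 window (chr3:36116582-36116831, minus) held 1 GC box and 1 cAMP response element starting at -158 from the gene start. These matches describe letters in a window and show no binding.

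The calcium-dependent ATP-Mg/phosphate carriers, which set the size of the adenine nucleotide pool in the matrix, did not move alike. Slc25a23 (ENSRNOG00000047781) went from 1.99, 2.19 and 1.29 FPKM in the sham rats to 7.45, 4.96 and 5.61 FPKM in the I/R rats (log2 fold change 1.68 ± 0.27, adjusted p = 0.0035). Slc25a25 (ENSRNOG00000014338) went from 1.96, 1.34 and 0.705 FPKM to 5.63, 3.46 and 3.67 FPKM (log2 fold change 1.67 ± 0.35, adjusted p = 0.0080). Neither gene overlapped between the groups. Slc25a24 (ENSRNOG00000020470) had 1.70, 2.69 and 2.54 FPKM in the sham rats and 1.62, 1.84 and 1.61 FPKM in the I/R rats, which overlapped (log2 fold change -0.41 ± 0.25, adjusted p = 0.22). Slc25a24 passed as lower with median centring (-0.66, adjusted p = 0.046) and without the mitochondrially encoded mRNAs (-1.16, adjusted p = 0.021).

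As a share, Slc25a24 formed 46.0, 55.1 and 66.3% of the sum of Slc25a24 and Slc25a23 in the sham rats and 17.9, 27.0 and 22.2% in the I/R rats. The mean share was lower by 33.4 points in the I/R rats, without overlap, and the exact permutation p was 0.10, the smallest that 3 rats against 3 can give (adjusted p = 0.23 over 7 pairs). The share is a ratio within a rat and does not depend on rescaling of the library. Slc25a25 made up 49.6, 38.0 and 35.3% of the sum of Slc25a25 and Slc25a23 in the sham rats and 43.0, 41.1 and 39.5% in the I/R rats, a difference of 0.26 points (exact permutation p = 1).

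Slc25a17, the coenzyme A and adenine nucleotide carrier of peroxisomes, had 4.29, 6.98 and 5.53 FPKM in the sham rats and 9.68, 5.57 and 5.81 FPKM in the I/R rats. Slc25a42, which brings coenzyme A into mitochondria, had 4.39, 6.96 and 6.16 FPKM and 7.64, 3.44 and 3.15 FPKM. Both overlapped between the groups and had log2 fold changes of 0.30 and -0.38 (adjusted p of 0.44 and 0.42 in limma). In both, I/R 1 was the highest of the I/R rats and above every sham rat.

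Among the carriers of carboxylic acids, 3 of 4 tested rose, beside 25.5% of all genes tested. Slc25a11 (ENSRNOG00000003815), the malate/2-oxoglutarate carrier of the malate-aspartate shuttle, was at 42.7, 20.1 and 18.7 FPKM in the sham rats and at 159, 71.3 and 68.9 FPKM in the I/R rats. It was the second carrier by mean level, its groups did not overlap, and its log2 fold change was 1.86 ± 0.41 (adjusted p = 0.0089). Slc25a35, whose substrate is less well defined, rose at a low level from 0.405 ± 0.093 to 1.15 ± 0.22 FPKM (SD, n = 3). Its log2 fold change was 1.30 (adjusted p = 0.014 in limma), a call lost without sham 3. The sham mean of Slc25a35 lay below the filter of 0.5 FPKM. It was therefore tested, and counted among the carriers that rose, only through its I/R values. Slc25a10, the dicarboxylate carrier, had a log2 fold change of 1.05 with an adjusted p of 0.047, and this call was lost in 11 of 18 alternatives, the omission of sham 1 included (adjusted p = 0.10, and 0.029 to 0.53 over the alternatives). The citrate carrier Slc25a1 did not pass (log2 fold change 0.36, adjusted p = 0.21), although each of its I/R values lay above each of its sham values.

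The acylcarnitine class held 2 tested genes. Slc25a20 (ENSRNOG00000020288), which exchanges acylcarnitine for carnitine and feeds fatty acids to matrix oxidation, was at 27.3, 20.8 and 17.5 FPKM in the sham rats and at 109, 49.8 and 40.1 FPKM in the I/R rats. I/R 1 was far above the other I/R rats, and the groups did not overlap (log2 fold change 1.48 ± 0.37, adjusted p = 0.014). Without sham 2 or without sham 3 the call was lost (adjusted p up to 0.059, and 0.00096 to 0.15 over all alternatives). Slc25a45 had a log2 fold change of -0.36 (adjusted p = 0.42). Slc25a47 and Slc25a48 lay below the filter.

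Among the amino acid carriers, 3 of 7 tested rose, beside 25.5% of all genes tested. Slc25a12 (ENSRNOG00000022922) and Slc25a13 (ENSRNOG00000009957) encode the calcium-sensitive aspartate/glutamate carriers, the partners of Slc25a11 in the malate-aspartate shuttle. Slc25a12 was at 5.67, 4.87 and 3.45 FPKM in the sham rats and at 18.1, 9.44 and 9.08 FPKM in the I/R rats. Slc25a13 was at 4.63, 3.47 and 2.67 FPKM and at 14.5, 7.57 and 6.34 FPKM. The groups did not overlap for either gene, and both log2 fold changes were 1.32 (SE 0.31 and 0.34, adjusted p of 0.012 and 0.016 in limma). Both calls were lost when sham 3 was left out (adjusted p of 0.050 and 0.062), and that of Slc25a13 also without sham 2. Over all alternatives their adjusted p ranged from 0.0019 to 0.14 and from 0.0018 to 0.16.

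The share of Slc25a12 in the sum of the 2 aspartate/glutamate carriers was 56.6 ± 1.7% in the sham rats and 56.6 ± 2.0% in the I/R rats (SD, n = 3; exact permutation p = 1). The third amino acid carrier that rose was Slc25a29, which carries basic amino acids (1.13 ± 0.21 and 3.13 ± 1.71 FPKM; log2 fold change 1.29, adjusted p = 0.019), a call lost without sham 2 or sham 3. Slc25a22, a mitochondrial glutamate carrier, was at 6.32, 11.2 and 3.42 FPKM in the sham rats and at 6.35, 3.29 and 3.97 FPKM in the I/R rats. Its sham values spread over a wider range than its I/R values and contained 2 of the 3 (log2 fold change -0.51 ± 0.41, adjusted p = 0.36). The ornithine carrier Slc25a15, the glycine carrier Slc25a38 and the branched-chain amino acid carrier Slc25a44 had log2 fold changes of 0.39, -0.12 and 0.38, and none passed the threshold.

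Among the 5 carriers of pyrimidine nucleotides and vitamins, 2 rose, 1 fell and 2 did not pass, beside 25.5% higher and 7.36% lower over all genes tested. Slc25a36 (ENSRNOG00000013802), a pyrimidine nucleotide carrier, was the one carrier that fell, from 4.47, 11.8 and 9.08 FPKM in the sham rats to 1.24, 2.43 and 2.28 FPKM in the I/R rats. The groups did not overlap, sham 1 was the lowest sham rat and I/R 1 the lowest I/R rat, and the log2 fold change was -1.99 ± 0.38 (adjusted p = 0.0058). It was called lower under every alternative except the fit without a filter. Slc25a33 (ENSRNOG00000016949), the related pyrimidine nucleotide carrier, rose from 3.74, 3.14 and 3.08 FPKM to 6.70, 5.99 and 6.98 FPKM (log2 fold change 0.96 ± 0.21, adjusted p = 0.0089), with the smallest standard error among the carriers that rose.

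Without the mitochondrially encoded mRNAs the change of Slc25a33 was 0.20 (adjusted p = 0.58), and with quantile normalization 0.61 (adjusted p = 0.057), so its rise was not called under these scalings. Slc25a33 formed 45.5, 21.0 and 25.3% of the sum of Slc25a33 and Slc25a36 in the sham rats and 84.4, 71.1 and 75.4% in the I/R rats. The mean share differed by 46.4 points, the largest difference of the 7 pairs, without overlap (exact permutation p = 0.10, the smallest possible, adjusted p = 0.23). When rats were left out singly, the difference ranged from 41.6 to 53.8 points. The 250 bases before the Slc25a33 start (chr5:165502974-165503223, minus strand, GRCr8, RefSeq) are given because this gene and Slc25a25 were the carriers whose windows held a cAMP response element, here starting at -84.
Slc25a33: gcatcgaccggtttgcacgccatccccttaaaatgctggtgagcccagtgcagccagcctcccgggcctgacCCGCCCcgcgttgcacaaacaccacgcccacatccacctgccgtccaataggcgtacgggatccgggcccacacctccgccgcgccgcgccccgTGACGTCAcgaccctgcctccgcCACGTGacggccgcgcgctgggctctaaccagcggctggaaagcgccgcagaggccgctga
The window also held an E-box and a GC box. No RefSeq window was found for Slc25a36.

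Of the other cofactor carriers, Slc25a26, which imports S-adenosylmethionine, rose from 2.58 ± 0.70 to 6.18 ± 2.80 FPKM (SD, n = 3; log2 fold change 1.17, adjusted p = 0.026). This call was lost in 7 of 18 alternatives, among them median centring and the omission of sham 2, sham 3 or I/R 1 (adjusted p up to 0.32). Slc25a32, linked to folate and flavin transport, had a log2 fold change of -0.43 (adjusted p = 0.23).

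Among the 4 carriers of metals and glutathione, 1 rose, a share near the 25.5% of all genes tested. Slc25a39 (ENSRNOG00000020994), a glutathione carrier, was at 16.1, 16.7 and 12.8 FPKM in the sham rats and at 43.9, 28.6 and 22.7 FPKM in the I/R rats (log2 fold change 1.01 ± 0.28, adjusted p = 0.022), without overlap. Its call was lost without sham 2, without sham 3 or without I/R 1 (adjusted p up to 0.083, and 0.0060 to 0.52 over all alternatives). Its paralog Slc25a40 had 0.459, 1.06 and 0.738 FPKM and 0.643, 0.358 and 0.430 FPKM (log2 fold change -0.53, adjusted p = 0.32). The share of Slc25a39 in the sum of both went from 97.2, 94.0 and 94.6% to 98.6, 98.8 and 98.1%, a difference of 3.21 points without overlap (exact permutation p = 0.10, adjusted p = 0.23).

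The mitoferrins, which carry iron into the matrix for heme and iron-sulfur clusters, did not pass the threshold for the deposited FPKM. Slc25a28, the mitoferrin of most tissues, had 11.9, 12.5 and 17.9 FPKM in the sham rats and 10.7, 12.4 and 10.8 FPKM in the I/R rats (log2 fold change -0.30, adjusted p = 0.36). It passed as lower without the mitochondrially encoded mRNAs (-1.07, adjusted p = 0.013) and with quantile normalization (-0.99, adjusted p = 0.038). Slc25a37, the mitoferrin of developing red cells, had 0.311, 1.18 and 0.772 FPKM and 0.712, 0.605 and 0.277 FPKM (log2 fold change -0.36, adjusted p = 0.60). Both overlapped, and Slc25a37 formed 5.11 ± 3.16% of the sum of both in the sham rats and 4.46 ± 1.87% in the I/R rats (SD, n = 3; exact permutation p = 0.80). The summed red cell markers ranged from 1212 to 1350 FPKM in the sham rats and from 641 to 1863 FPKM in the I/R rats, and their part in these values was not tested.

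Of the uncoupling-like members, Slc25a30, a relative of the uncoupling proteins, rose from 1.15 ± 0.08 to 3.25 ± 0.79 FPKM (SD, n = 3; log2 fold change 1.40, adjusted p = 0.0043). Slc25a27, another such relative, lay below the filter and was not tested, with 0.0355, 0.326 and 0.213 FPKM in the sham rats and 0.00677, 0.0126 and 0.00671 FPKM in the I/R rats. These values stood for 6, 65 and 41 fragments and for 1, 2 and 1 fragments. Slc25a46, an outer membrane member of the family linked to mitochondrial shape, had a log2 fold change of 0.23 (adjusted p = 0.48).

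Beside Slc25a27, 7 carriers lay below the filter with some fragments and 4 were at 0 in all 6 rats. Slc25a6, an ADP/ATP carrier in other mammals, had 0, 1 and 0 fragments in the sham rats and 2, 5 and 7 in the I/R rats. Slc25a47 had 0, 0 and 1 fragments and 2, 1 and 6. Slc25a18, Slc25a21, Slc25a48, Slc25a52 and Slc25a53 had means of at most 0.266 FPKM. Slc25a2, Slc25a31, Slc25a41 and Slc25a54 were at 0, which allows up to 3 fragments in a library and covers counting error only. The phosphate carrier Slc25a3 was not analysed here, nor were Slc25a14, Slc25a16, Slc25a34, Slc25a43 and Slc25a51. No row of the values used carried these symbols, and 7092 rows had no symbol.

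Among the 15 carriers that rose, 14 had their highest I/R value in I/R 1, and 9 had their highest sham value in sham 1, the rats with the highest summed cardiomyocyte markers in each group. The highest I/R value fell in I/R 1 for 58.3% of all genes tested and 75.3% of all genes called higher, and the highest sham value in sham 1 for 27.8% and 57.4%. Without both of these rats 14 of the 15 carriers were still called higher, and Slc25a42 joined Slc25a36 among those lower. Of all genes, 2630 were then higher and 1032 lower. Without sham 1 alone 14 rose and 1 fell, without sham 2 the number that rose was 9, and without sham 3 it was 7. The calls over all genes dropped too, with 2567, 1932 and 1526 higher without sham 1, 2 and 3, beside 2790 with every rat.

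Carriers were next compared with nuclear genes of oxidative phosphorylation (OXPHOS) of the same rat, which does not depend on library scaling. Of the 85 OXPHOS genes tested 72 rose, with a median log2 fold change of 1.59, and of 69 mitochondrial ribosomal protein genes 63 rose, with a median of 1.36. Relative to the OXPHOS mean of each rat, 0 of the 31 carriers were higher and 14 were lower, beside 1.04% and 57.6% of all genes tested. At an unadjusted p under 0.05, 0 were higher as well. Each difference is the log2 fold change of the carrier minus the same OXPHOS mean, so the order of the carriers is that of the first comparison. The median difference of the 14 was -1.95, with Slc25a36 the lowest at -3.57. For the 15 carriers that rose, the difference ranged from -0.63 to 0.56 and passed on neither side.

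Slc25a4 had the highest difference from the OXPHOS genes, 0.56 ± 0.32 with an adjusted p of 0.11. With the replicate number as a block the same difference had an adjusted p of 0.0042, and without sham 1 it was 0.61 with an adjusted p of 0.025. The study describes no pairing of the rats, so here and below the block rests on the replicate numbers of the labels alone. Under the block Slc25a44 passed as lower (adjusted p = 0.050). The number of carriers lower than the OXPHOS genes was 19 without sham 1, 7 without sham 2, 5 without sham 3, 8 without I/R 2 and 9 without I/R 3.

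Relative to the mean of the 8 cardiomyocyte markers, 0 carriers were higher and 18 were lower, beside 0.338% and 78.9% of all genes tested, and 0 were higher at an unadjusted p under 0.05. Again the order of the carriers is that of the first comparison, and the 18 included 2 that had risen, Slc25a33 (-1.19, adjusted p = 0.045) and Slc25a39 (-1.15, adjusted p = 0.021). Slc25a4 lay at -0.01 ± 0.38, close to the mean of the markers, whose own log2 fold changes ran from 0.82 to 3.79. The block added Slc25a10 and Slc25a26 to those lower (adjusted p of 0.041 and 0.037 in limma), and without sham 1 the number lower was 29.

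**Figure D3:**
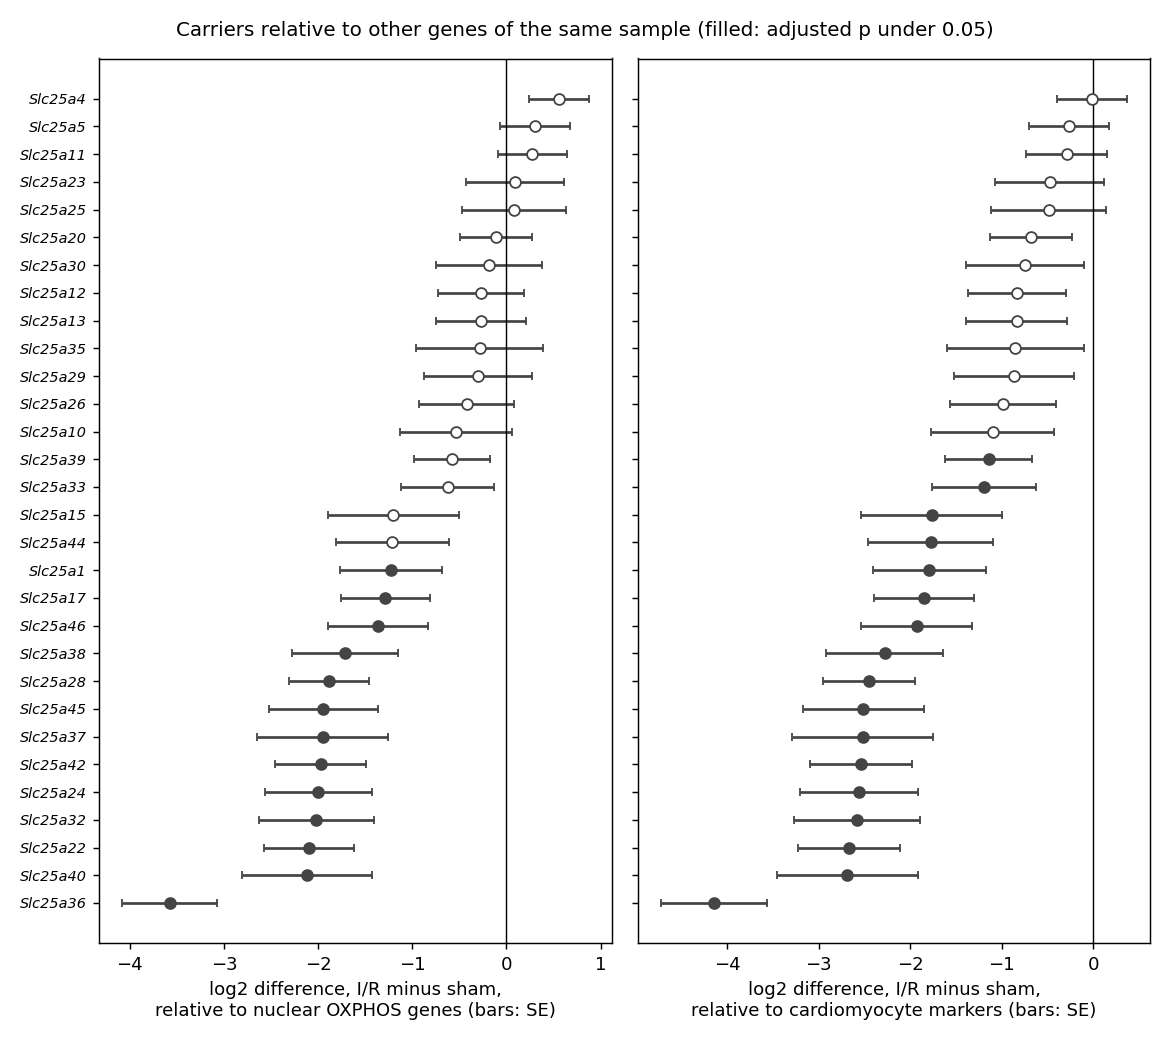
Log2 difference of I/R against sham for 30 of the 31 tested carriers after subtracting the mean log2 of the nuclear OXPHOS genes (left) or of the cardiomyocyte markers (right) of the same rat, with standard errors as bars and filled points for an adjusted p under 0.05. On the left 13 carriers are filled and all lie below 0, and on the right 17 are filled.

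**Figure D4:**
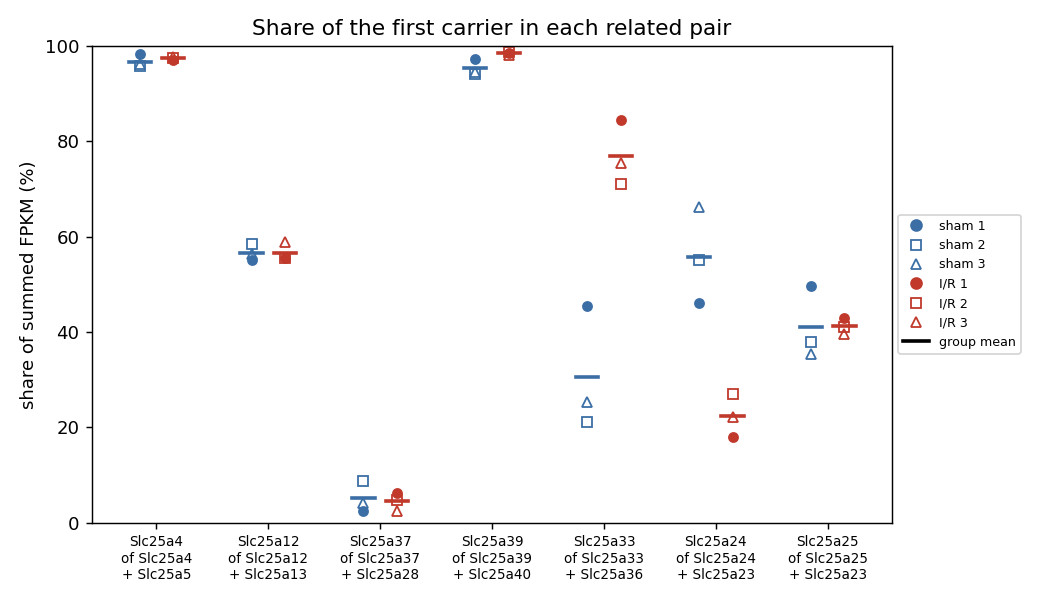
Share of the first carrier in the summed FPKM of each related pair, in percent, for each rat, with group means as lines. The groups lie apart for Slc25a33 of Slc25a33 and Slc25a36, for Slc25a24 of Slc25a24 and Slc25a23 and, by a small amount, for Slc25a39 of Slc25a39 and Slc25a40.

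Genes that work with the carriers were taken from 6 lists, of which 46 genes were tested, 33 rose and 2 fell, beside 25.5% and 7.36% of all genes tested. Relative to the OXPHOS genes 3 of the 46 were higher and 10 lower, beside 1.04% and 57.6% of all genes tested. Relative to the cardiomyocyte markers 1 was higher and 19 were lower, beside 0.338% and 78.9%. Without the mitochondrially encoded mRNAs 16 of the 46 rose and 6 fell, beside 793 and 2857 of all 10942 genes tested. All 4 malate-aspartate shuttle enzymes rose, as did the 3 carriers of the shuttle for the deposited FPKM. Without the mitochondrially encoded mRNAs the calls of Slc25a12 and Slc25a13 were lost (adjusted p of 0.14 and 0.16 in limma). Relative to the OXPHOS genes 2 of the 4 enzymes were higher, and the 3 carriers did not pass (adjusted p of 0.50 to 0.61). Mdh1, the cytosolic malate dehydrogenase, was at 96.5, 49.4 and 45.6 FPKM in the sham rats and at 615, 297 and 294 FPKM in the I/R rats (log2 fold change 2.65, adjusted p = 0.0029). In the carnitine pathway 2 of 5 rose, led by Crat, the carnitine acetyltransferase, with 15.4, 13.5 and 8.17 FPKM and 85.3, 35.1 and 29.0 FPKM (log2 fold change 1.88, adjusted p = 0.0087). Cpt1b, the muscle enzyme that makes acylcarnitine at the outer membrane, passed with the replicate block (log2 fold change 1.06, adjusted p = 0.0070) and missed the threshold without it (adjusted p = 0.053).

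In iron-sulfur and heme synthesis 7 of 10 rose, led by Alas1, the first enzyme of heme synthesis, with 3.21, 2.75 and 2.07 FPKM in the sham rats and 59.0, 28.5 and 29.2 FPKM in the I/R rats (log2 fold change 3.75 ± 0.32, adjusted p = 0.00031). Fech, the last enzyme of heme synthesis, passed with the block only (log2 fold change 0.84, adjusted p = 0.018 with the block and 0.055 without it). The mitoferrins that supply the iron did not pass in the same fit. Of the other inner membrane transport and pore genes, 11 of 16 rose and 2 fell, beside 25.5% and 7.36% of all genes tested. Ppif, the cyclophilin that regulates the permeability transition pore, was at 6.01, 3.54 and 2.20 FPKM and at 39.0, 14.0 and 13.5 FPKM (log2 fold change 2.40, adjusted p = 0.0057). The 2 that fell, named after their values were seen, were Slc8b1, the mitochondrial sodium/calcium exchanger (log2 fold change -1.12, adjusted p = 0.016), and Sfxn4, a sideroflexin (-1.37, adjusted p = 0.0053).

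Of the 7 tested genes of TIM22 import, 6 rose, led by Timm10, a chaperone of the intermembrane space that escorts carrier precursors (26.9, 10.4 and 10.5 FPKM in the sham rats and 86.0, 56.5 and 57.0 FPKM in the I/R rats; log2 fold change 2.18, adjusted p = 0.0043). Family relatives outside the symbol rule were tested for 4 genes, of which 3 rose, beside 25.5% of all genes tested. Ucp2, an uncoupling protein found in many cell types, immune cells among them, was at 79.9, 67.8 and 38.7 FPKM and at 174, 146 and 162 FPKM (log2 fold change 1.43, adjusted p = 0.0076). Mtch1 and Mtch2, outer membrane members of the family, had log2 fold changes of 1.11 and 1.49 (adjusted p of 0.0082 and 0.0061 in limma). The calls of Ucp2 (0.34), Mtch1 (0.15) and Mtch2 (0.65) were lost with quantile normalization, and those of Ucp2 (0.65) and Mtch1 (0.33) without the mitochondrially encoded mRNAs, the values being log2 fold changes. Ucp3, the muscle uncoupling protein, was at 3.44, 6.94 and 1.06 FPKM and at 2.01, 1.32 and 0.883 FPKM, which overlapped (log2 fold change -1.10, adjusted p = 0.16, and 0.042 with the replicate block). It also passed as lower without sham 3 (-1.80, adjusted p = 0.021) and without the mitochondrially encoded mRNAs (-1.84, adjusted p = 0.013), and ranged from -1.80 to -0.50 when rats were left out singly. Ucp1, the brown fat protein, had at most 0.122 FPKM and was not tested.

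The upstream windows of the carriers were also compared as a set. RefSeq windows were found for 35 of the 43 carriers, 13 of them among those that rose and 11 among the other tested carriers. The carrier that fell, Slc25a36, had no window and is not among the 11. The median GC content of the 250 bases was 66.0% for the 13 and 57.2% for the 11, beside 51.2% over all 33469 windows. The median number of CpG was 20, 13 and 5. The set of all windows was not limited to genes tested here, while both carrier sets passed the FPKM filter, so the sets are unlike. The GC box GGGCGG was found on either strand in 8 of the 13, in 7 of the 11 and in 30.5% of all windows. The cAMP response element TGACGTCA was found in 2 of the 13, which were Slc25a25 and Slc25a33, in 0 of the 11 and in 1.59% of all windows.

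Among the 13, the ETS motif CCGGAAGT occurred in 1 (Slc25a20, 3.10% of all windows) and the E-box CACGTG in 1 (Slc25a33, 5.59%). The NRF1 core TGCGCATGC (1.23% of all windows), the ERR motif TNAAGGTCA (1.04%), the YY1 motif AAGATGGC (1.63%), the MEF2 core TAAAAATA (2.44%) and the FOXO motif GTAAACA (3.21%) occurred in 0 of the 13. Of these, the YY1 motif occurred in 1 of the 11 other tested carriers, Slc25a44. Both strands were searched, and the absence of a match says only that these letters are not in this window.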

How the data were processed

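RNA-seq of myocardial tissue from 3 sham and 3 I/R rats was analysed from 1 table of FPKM values that the authors deposited, already scaled by gene length and library size. The submitters' processing notes name STAR and HTSeq, without versions, and the genome build is not given in the sources used here. Columns were matched to samples by name. Summing rows with the same symbol gave 28293 genes. The 10942 of them with a mean of at least 0.5 FPKM entered limma 3.58.1 (R 4.3.3, eBayes with trend) on log2(FPKM + 0.1), with Benjamini-Hochberg adjustment over all genes tested and a threshold of 0.05. No count test was used as the main result, because the FPKM are not counts. Whole fragments were recovered within a tolerance of 0.02 for 99.8% of 10981 rows, as the smallest whole numbers that fit, and limma's voom on them, added after seeing the data, called 15 carriers higher and 1 lower. The 31 tested carriers had 261 to 649237 such fragments over the 6 rats. Shares of pairs were compared with two-sided exact permutation tests, whose smallest p is 0.1 at this group size.

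The members and gene lists were chosen with earlier results of these data known. Every carrier could be named, and values in every rat are given for the 12 of highest mean FPKM, every carrier that fell, the 6 that rose most and both genes of each tested pair. The values of 1 tested carrier are not reported here, although it is included in the counts. Of the partner genes, the called member with the largest change in each list and the uncoupling proteins, Mtch1 and Mtch2 are named, with genes whose call changed with the replicate block. Replicate numbers come from the sample labels. Deviations from the group means correlated between same-numbered rats at 0.20, 0.12 and 0.12 over 10942 genes. Differently numbered rats gave -0.19 to 0.12, the highest being sham 3 with I/R 2. These values do not establish that the numbers pair the rats, and for pairs 2 and 3 the evidence is weak. The numbers were nevertheless treated as pairing the rats in an alternative fit with the replicate number as a block. The reported fit has no block, since the study describes no pairing. The scripts were tested on simulated data. Promoter sequences are those of RefSeq (GRCr8), matched by symbol. Other alternatives were pseudocounts of 1 and 0.01, no filter or a filter of 5 FPKM, other scalings, no trend, the highest row of each symbol, and leaving out rats.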

Additional observations from a re-analysis of the deposited data

How the results depend on the processing

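When rats were left out singly, 7 to 15 carriers rose and 1 fell, with a median log2 fold change of 0.36 to 0.77. Relative to the OXPHOS genes 0 to 1 were then higher and 5 to 19 lower, and relative to the cardiomyocyte markers 13 to 29 were lower. Partner genes ranged from 25 to 33 higher and 1 to 2 lower, and all genes from 1526 to 2567 higher and 305 to 880 lower. Of the carriers' calls, Slc25a4, Slc25a5, Slc25a11, Slc25a23, Slc25a25, Slc25a30, Slc25a33 and Slc25a36 passed whichever single rat was left out. With the replicate block, 15 carriers rose and 1 fell, 1 was higher relative to the OXPHOS genes and 20 were lower relative to the cardiomyocyte markers. The block changed no call of a carrier or partner gene other than those given above.

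Without a filter on low values, all genes gave 152 higher and 47 lower, carriers 1 and 0, and partner genes 1 and 0. A filter of 5 FPKM left 13 carriers, 7 of them higher, with a median of 1.01, 5 lower relative to the OXPHOS genes and 7 relative to the markers, 166 of all genes lower and 0 partner genes lower. TPM gave 504 of all genes lower. Rescaling without the mitochondrially encoded mRNAs gave 793 higher and 2857 lower among all genes (median -0.46), 5 and 8 carriers (median -0.28), and 16 and 6 partner genes. Median centring gave 1554 of all genes, 3 carriers and 4 partner genes lower. Quantile normalization gave 1441 and 1559 of all genes (median -0.022), 9 and 2 carriers, and 15 partner genes higher. Without sham 1 and I/R 1 together, 2 carriers were lower. The causes were not tested, apart from the smaller number of genes that the stricter filter leaves.

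Some log2 fold changes that had not passed changed sign. Without the mitochondrially encoded mRNAs they became -0.47 for Slc25a17, -0.54 for Slc25a46, -0.39 for Slc25a1, -0.36 for Slc25a44 and -0.28 for Slc25a15. With quantile normalization they were -0.17 for Slc25a17 and -0.043 for Slc25a46, and with median centring -0.024 for Slc25a46. TPM gave 0.067 for Slc25a38, and leaving out rats gave 0.0036 for Slc25a37 without sham 2 (range -0.82 to 0.0036), 0.0017 for Slc25a38 without I/R 2 (range -0.19 to 0.0017) and -0.12 for Slc25a17 without sham 1 and I/R 1. Of the pair shares, quantile normalization gave -1.22 points for Slc25a12 of Slc25a12 and Slc25a13 and 1.59 points for Slc25a37 of Slc25a37 and Slc25a28. With each rat left out, these ranged from -1.13 to 0.89 and from -1.93 to 1.12 points, and Slc25a25 of Slc25a25 and Slc25a23 from -2.57 to 4.58 points. Depth limits the carriers below 0.5 FPKM, which had few fragments and were not tested.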
